A study of Mus musculus with 6 samples.

Results

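Toll-like receptors (TLRs) and their partner CD14 are the genes described here, in mouse bone marrow cells grown with and without midkine. They were taken from the table of normalized counts by gene symbol: Tlr1, Tlr2, Tlr3, Tlr4, Tlr6, Tlr7, Tlr8, Tlr9, Tlr13 and Cd14, which are 10 of 15443 genes. All 6 libraries came from marrow of wild-type mice of the inbred strain C57BL/6J, cultured for 3 days with FLT3LG at 50 ng/ml, a cytokine under which marrow progenitors give rise to dendritic cells (DCs). The 3 control libraries (replicates 1, 2 and 4) had no further addition. The 3 midkine libraries (replicates 3, 4 and 5) also received recombinant human midkine, a heparin-binding growth factor, at 10 ng/ml. The labels give no age and do not tie replicates to separate mice or cultures, so the p-values below cover the spread among these libraries, which can be technical. The cells were not sorted, and the libraries held RNA of many blood cell types, with markers of DCs, monocytes and macrophages, neutrophils, B cells, and mast cells, basophils and eosinophils detected in each library.

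TLRs recognise molecules of microbes and of damaged cells. TLR1, TLR2, TLR4 and TLR6 sit on the cell surface, where TLR2 pairs with TLR1 or TLR6 to bind lipoproteins, and TLR4 with its partner MD-2 binds lipopolysaccharide, which CD14 hands to it. TLR3, TLR7, TLR8, TLR9 and TLR13 sit in endosomes and bind nucleic acids. Most TLRs signal through the adaptor MyD88, whereas TLR3 uses TRIF, and the signals end at NF-kB and interferon regulatory factors. Macrophages and monocytes are known for the surface receptors and Cd14, type 1 conventional DCs (cDC1) for Tlr3, and plasmacytoid DCs for Tlr7 and Tlr9.

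Recovered reads per library ranged from 5985684 to 7233960. Midkine 5 stood apart from the other libraries. Its log2 values had Pearson correlations of 0.934 to 0.949 across genes with the other 5, which had 0.967 to 0.981 among themselves (genes are not independent replicates). In midkine 5, 0.377% of reads were of mitochondrial ribosomal RNA (Wilson 95% interval 0.372 to 0.381%, counting error only), against 4.12 to 6.16% elsewhere. The tests of the members are therefore given with and without that library. With all 6 libraries limma called 0 of 13543 genes tested at an adjusted p under 0.05, or 0% (edgeR called 10, or 0.0738%, and DESeq2 684 of 11549, or 5.92%). An unadjusted p under 0.05 was found for 2663 genes, or 19.7%, with 10.4% higher and 9.3% lower. Without midkine 5, limma called 2497 genes, or 18.4% (9.92% higher and 8.52% lower with midkine).

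Transcripts of Cd14 and of 5 TLRs (Tlr1, Tlr4, Tlr6, Tlr7 and Tlr13) lay higher in each midkine library than in any control library, and those of Tlr3 lay lower in each. Tlr2 and Tlr8 overlapped between the groups, and Tlr9 was near the limit of detection. So 7 of the 9 members that passed the filter on low values had groups that did not overlap, against 30.8% of all genes tested (15.5% higher and 15.3% lower). With all 6 libraries limma called 0 of the 9 after adjustment. An unadjusted p under 0.05 was found for 7 of them, 6 higher and 1 lower, edgeR on the recovered reads called 0, and DESeq2 called 3 (Tlr4, Tlr13 and Cd14). Without midkine 5, limma called 6 of the 9 (66.7%, against 18.4% of all genes tested): Cd14, Tlr1, Tlr4, Tlr7 and Tlr13 as higher and Tlr3 as lower. edgeR called 6 without that library, against 18.5% of all genes, and limma with array weights, which downweight libraries that stand apart, called 8 with all libraries (these 6, Tlr6 and Tlr8), against 37.5%. The median log2 fold change of the 9 was 0.60 with all 6 libraries and 0.69 without midkine 5, against −0.00404 and −0.00215 over all genes tested. The members, and the pathway lists below, were chosen with earlier results of these data known. Their shares beside those of all genes are therefore descriptive and do not test these sets.

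**Figure D1:**
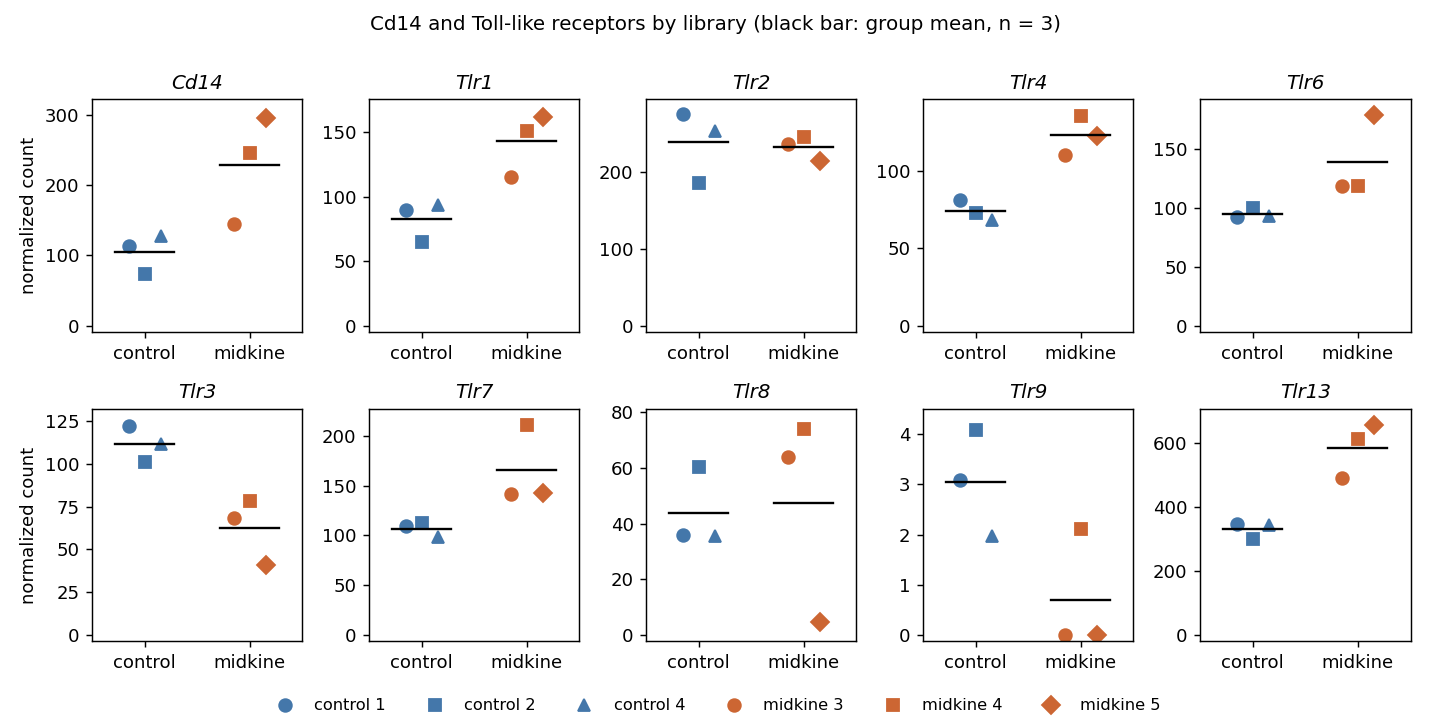
Normalized counts (vertical axes, each starting at 0) of Cd14 and the 9 Toll-like receptors in the 3 control and 3 midkine libraries; each symbol is 1 library and the black bar is the group mean. The groups do not overlap for Cd14, Tlr1, Tlr4, Tlr6, Tlr7 and Tlr13, which lie higher with midkine, nor for Tlr3, which lies lower, and midkine 5 is the lowest point for Tlr8 at 4.54.

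RefSeq (GRCm38.p6) gave the bases before a start of transcription for 7 of the 10 genes. Tlr4 and Tlr7 were not matched, and Cd14 was left out of the search. The stretches shown are of the pair whose values ran closest together over the 6 libraries (Tlr13 and Tlr1), the receptor that lay lower with midkine (Tlr3) and one whose groups overlapped (Tlr2). They are written 5′ to 3′ on the strand of the gene, as the run outside annotated exons or, for Tlr3, as 30 bases around the match. The RefSeq start used for Tlr3 lies 700 bases inside the GENCODE gene, so its stretch is within the gene. Of the 250 bases before that start, 178 lay in annotated exons, and the match was not in the longest run outside them. Capitals mark matches to GAGGAA, the box of the myeloid transcription factor PU.1, in Tlr13 and Tlr1, and to GGGANTTNC, the core of an NF-kB site, in Tlr3 and Tlr2; both strands were searched.
Tlr13, chrX:106143025-106143203, plus strand: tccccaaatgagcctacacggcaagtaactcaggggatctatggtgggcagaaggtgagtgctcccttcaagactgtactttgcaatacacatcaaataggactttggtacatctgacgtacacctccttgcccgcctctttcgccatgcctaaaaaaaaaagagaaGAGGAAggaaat
Tlr1, chr5:64933564-64933808, minus strand: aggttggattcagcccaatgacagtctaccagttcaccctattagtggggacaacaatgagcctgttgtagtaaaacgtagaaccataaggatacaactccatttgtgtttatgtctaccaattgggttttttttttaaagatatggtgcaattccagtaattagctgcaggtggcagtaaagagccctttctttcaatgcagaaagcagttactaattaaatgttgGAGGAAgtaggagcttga
Tlr3, chr8:45410573-45410602, minus strand: tagttgtttctGGGAGTTTCctgcttttga
Tlr2, chr3:83841768-83841858, minus strand: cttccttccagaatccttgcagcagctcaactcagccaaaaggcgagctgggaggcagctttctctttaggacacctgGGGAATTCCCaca
The PU.1 box was found within 250 bases before a start in 4 of the 7 genes (Tlr1, Tlr8, Tlr9 and Tlr13), and in 23.3% of all 32851 windows of that length. The NF-kB letters were found in 2 genes (Tlr2 and Tlr3), and in 3.54% of all windows; in Tlr2 matches on both strands overlapped. An AP-1 site (TGANTCA, 6.75% of windows) was found in Tlr9. An IRF site (GAAANNGAA, 7.13% of windows) was found in Tlr8 and, as a pair of overlapping matches, in Tlr6 (before a RefSeq start 931 bases inside the GENCODE gene). Of the 4 genes with the PU.1 box, Tlr1 and Tlr13 lay higher with midkine, Tlr8 overlapped between the groups and Tlr9 was not tested. Tlr6, which also lay higher, had no PU.1 match. Of the 2 genes with the NF-kB letters, Tlr3 lay lower with midkine and Tlr2 overlapped between the groups. A link of the letters to the counts was not tested. A match is a run of letters, and binding was not measured. The motifs were chosen after the promoters were seen, and the 7 genes had 9 windows. The counts of genes are therefore no test against the shares of windows.

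Cd14, the co-receptor that passes lipopolysaccharide to TLR4, had the largest log2 fold change of the members tested. Its gene (ENSMUSG00000051439.7, protein coding) is on the minus strand of chromosome 18 (GRCm38, 36725067 to 36726798). It had 113, 72.6 and 127 normalized counts in control 1, 2 and 4, and 145, 246 and 295 in midkine 3, 4 and 5. All 3 midkine values were above the highest control, and the midkine libraries spread more widely than the controls. The group values were 104 ± 28.3 and 229 ± 76.5 (mean ± SD over the 3 libraries of a group, as in all such pairs that follow), a log2 fold change of 1.10 ± 0.310 (SE) or 2.15-fold on the log2(value + 1) scale, with an adjusted p of 0.135 in limma. Without midkine 5 the log2 fold change was 0.89 ± 0.224 and the adjusted p 0.00991.

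Tlr4, the receptor for lipopolysaccharide (chromosome 4, 66827584 to 66930284, plus strand), had 81.0, 72.6 and 68.1 normalized counts in the controls. In midkine 3, 4 and 5 it had 110.2, 136 and 123. The groups did not overlap, and the smallest gap lay between control 1 and midkine 3. The log2 fold change was 0.73 ± 0.179 with all libraries (limma, adjusted p = 0.104) and 0.73 ± 0.172 without midkine 5 (adjusted p = 0.00680). Of the members it moved least when that library was left out.

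Tlr1 and Tlr6, the alternative partners of TLR2, are neighbours on the minus strand of chromosome 5 (64924679 to 64933563 and 64952031 to 64960097). Tlr1 had 89.2, 64.4 and 93.7 normalized counts in control 1, 2 and 4, and 115, 151 and 162 in midkine 3, 4 and 5. Its log2 fold change was 0.79 ± 0.221 (limma, adjusted p = 0.135), and 0.69 ± 0.189 without midkine 5 (adjusted p = 0.0166). Tlr6 had 92.3, 100.2 and 93.7 in the controls and 119, 119 and 179 in the midkine libraries. Both genes were higher in each midkine library, but for Tlr6 midkine 5 was far above midkine 3 and 4. The log2 fold change of Tlr6 was 0.51 ± 0.207 (limma, adjusted p = 0.230) and 0.32 ± 0.155 without midkine 5 (adjusted p = 0.168), so Tlr6 did not pass in either fit. In the last 500 bases of their annotated transcripts, where the 3′ reads of this assay start, 0 stretches of 50 bases were shared between any members. Tlr1 shared 58 of 822 such stretches with transcripts of other genes.

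Tlr2 itself, the common partner of both (chromosome 3, 83836272 to 83841767, minus strand), had 276, 186 and 254 normalized counts in the controls and 237, 246 and 215 in the midkine libraries. The midkine values lay inside the control range. Its log2 fold change was −0.02 ± 0.189 (limma, adjusted p = 0.961), and 0.03 ± 0.151 without midkine 5 (adjusted p = 0.906). It was thus the surface receptor with the smallest difference, and its sign changed with the libraries used.

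**Figure D2:**
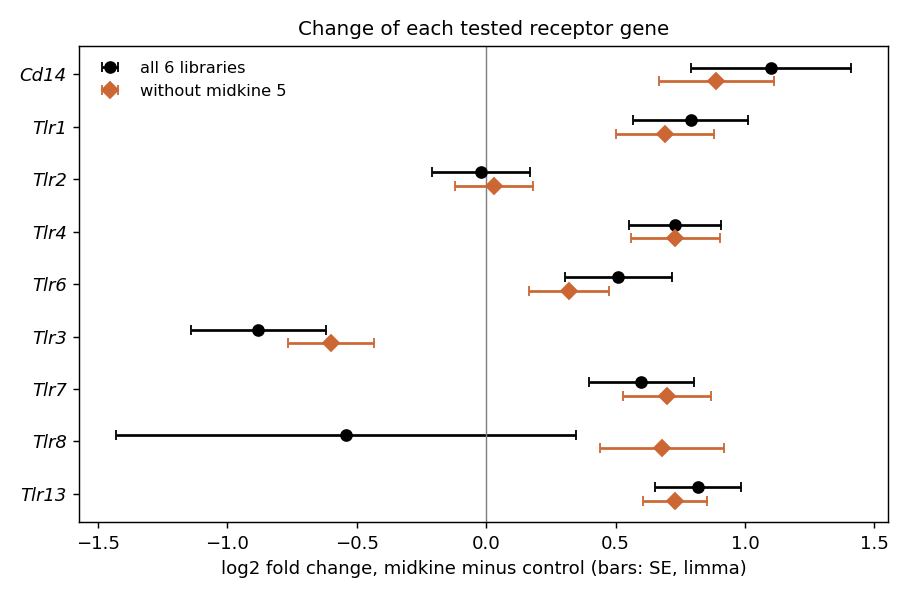
Log2 fold change (horizontal axis, midkine minus control, on the log2(value + 1) scale) of the 9 members tested by limma, with standard errors as bars; black circles use all 6 libraries and orange diamonds leave out midkine 5. Cd14 is farthest to the right at 1.10, Tlr3 lies left of 0 in both fits, and Tlr8 moves from −0.54 to 0.68.

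Among the endosomal receptors, Tlr13, which binds bacterial ribosomal RNA (chromosome X, 106143204 to 106160493, plus strand), had the smallest unadjusted p of the members. It had 346, 301 and 345 normalized counts in control 1, 2 and 4, and 490.1, 613 and 657 in midkine 3, 4 and 5. The gap between the groups was wider than the range within the controls. The means were 331 ± 25.8 and 587 ± 86.6, with a log2 fold change of 0.82 ± 0.166 (limma, unadjusted p = 0.00104, adjusted p = 0.0803). Without midkine 5 it was 0.73 ± 0.123 (adjusted p = 0.000529).

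Tlr7, a receptor for single-stranded RNA (chromosome X, 167304929 to 167330558, minus strand), had 109, 112 and 98.6 normalized counts in the controls and 142, 211 and 143 in the midkine libraries. Midkine 4 was the high library, and midkine 5 was close to midkine 3. The log2 fold change was 0.60 ± 0.204 (limma, adjusted p = 0.180), and 0.70 ± 0.170 without midkine 5 (adjusted p = 0.00803).

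Tlr8 lies next to Tlr7 on chromosome X (167242696 to 167264329, minus strand) and encodes a related receptor for RNA. Its values were 35.9, 60.3 and 35.5 normalized counts in the controls, 63.8 and 73.9 in midkine 3 and 4, and 4.54 in midkine 5. The last value rests on 5 reads, against 35 to 70 in the other libraries. With all 6 libraries the log2 fold change was −0.54 ± 0.889 (limma, adjusted p = 0.749). Without midkine 5 it was 0.68 ± 0.240 (adjusted p = 0.0583). The sign also depended on the method: with all libraries edgeR gave 0.09, DESeq2 0.11 and limma with array weights 0.76 (adjusted p = 0.0294). Its neighbour Tlr7 had no such drop in midkine 5.

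Tlr3, the receptor for double-stranded RNA (chromosome 8, 45395665 to 45411080, minus strand), was the only tested member that lay lower in each midkine library. It had 122, 101 and 112 normalized counts in the controls and 68.6, 78.1 and 40.8 in midkine 3, 4 and 5. Midkine 5 was the lowest, but midkine 3 and 4 were also below each control. The means were 112 ± 10.4 and 62.5 ± 19.4, and the log2 fold change was −0.88 ± 0.261 (limma, adjusted p = 0.144), or 0.545 of the control level. Without midkine 5 it was −0.60 ± 0.166 (adjusted p = 0.0173). An exon of the antisense gene Gm45542 overlaps Tlr3 in the annotation, and that gene had no row in the table.

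Tlr9, the receptor for unmethylated CpG DNA (chromosome 9, 106222598 to 106226883, plus strand), was counted with 3, 4 and 2 reads in the controls and 0, 2 and 0 in the midkine libraries. It failed the filter on low values (a mean of at least 5 normalized counts) and was not tested. A count of 0 allows up to 3 reads, or 4.69e-05% of the reads in midkine 3 and 4.15e-05% in midkine 5 (counting error only). All values were at or near this floor, so no fold is given, and a difference was not detectable at this depth.

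The order of the levels can be read because the assay counts 1 fragment near the 3′ end of each transcript, whatever its length; how well each 3′ end is captured was not tested. On this scale of normalized counts Tlr13 had the highest level of the members in both groups. In the controls Tlr2 came next, and neither range overlapped its neighbour. Tlr3, Tlr7, Cd14, Tlr6, Tlr1 and Tlr4 followed, with means from 112 to 73.9, and each overlapped the next in this order. Tlr8 and Tlr9 were lowest. In the 3 midkine libraries, midkine 5 included, Cd14 (145 to 295) overlapped Tlr2 (215 to 246), and Tlr3 (62.5 ± 19.4) lay below Tlr4 and overlapped Tlr8.

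Likeness of patterns was measured as the root mean square distance between log2(value + 1) profiles over the 6 libraries, each centred on its own mean. Tlr1 and Tlr13 were nearest to each other among the members (0.105), and Tlr13 was also nearest to Tlr4 (0.131) and Tlr6 (0.232). Tlr7 was nearest to Tlr4 (0.151) and Cd14 to Tlr1 (0.235). Tlr8 was at 1.008 from its nearest member, the largest such distance, but at 0.257 over the 5 libraries without midkine 5. Over those 5, Tlr13 and Tlr4 were the nearest pair (0.099) and Tlr13 was again the member nearest to Tlr1 (0.115). Among all genes with a mean of at least 20, those nearest to Cd14 were Pop7 (0.128), Ctsl (0.174) and Fas (0.185), and without midkine 5 Nxt2 (0.127), Pop7 (0.135) and Kremen1 (0.139). Those nearest to Tlr3 were B3gnt5 (0.064), Cdc14a (0.083) and Tbc1d31 (0.10); B3gnt5 had 225, 190.2 and 200.2 normalized counts in the controls and 136, 159 and 79 in the midkine libraries. Without midkine 5 the genes nearest to Tlr3 were others, Acy1 (0.044), H2-DMb1 (0.050) and Trim30c (0.052). For Tlr9 the nearest genes, AC154912.3, Tspan33 and Pdzd4, were at 0.386 to 0.407, and its profile rests on at most 4 reads per library.

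The 3 other mouse TLR genes of the list were low or lay lower with midkine. Tlr12, an endosomal receptor for the parasite protein profilin, had 153, 155 and 133 normalized counts in the controls and 83.1, 69.7 and 109.8 in the midkine libraries. Each midkine value was below each control, with a log2 fold change of −0.76 (limma, adjusted p = 0.131) and −0.94 without midkine 5 (adjusted p = 0.000538). Tlr11, its partner, had 13.3, 6.14 and 4.93 in the controls and 1.93, 0 and 2.72 with midkine, and was too low to be tested. Tlr5, the receptor for flagellin, overlapped between the groups (12.5 ± 4.75 and 14.0 ± 3.01, adjusted p = 0.792).

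Of the co-receptors and chaperones of TLRs, all 9 listed genes were tested. Without midkine 5 limma called 4 higher and 2 lower (66.7%, against 18.4% of all genes tested), with a median log2 fold change of 0.43, and with all 6 libraries it called 0 (median 0.10). Ly96, which encodes the MD-2 partner of TLR4, had 11.3, 13.3 and 15.8 normalized counts in the controls and 26.1, 40.1 and 32.7 with midkine (log2 fold change 1.22, adjusted p = 0.0134 without midkine 5). Its groups did not overlap. Lbp, the protein that loads lipopolysaccharide onto CD14, had 72.5 ± 4.88 and 138 ± 64.3, with 212 in midkine 5 (adjusted p = 0.0593 without it). Unc93b1, which carries endosomal TLRs out of the endoplasmic reticulum, had 881 ± 6.79 and 1630.4 ± 673, with 2360.0 in midkine 5 (limma, adjusted p = 0.179). Without midkine 5 its midkine mean was 1266, and it was called higher (limma, adjusted p = 0.01). Cd36 and Cd180, the other genes called higher there, lay below each control in midkine 5. Cd36 had 886 in that library against 1229.8 to 1730.4 in the controls, and Cd180 had 467 against 615 to 797. Of the chaperones of TLR folding, Cnpy4 and Hsp90b1 were called lower without midkine 5 and Cnpy3 was not. Cnpy4 had 477 ± 15.0 in control and 279 ± 45.6 in midkine libraries (adjusted p = 0.000639 without midkine 5), and Hsp90b1 (gp96) had 6369.7 ± 769.6 and 4838 ± 379 (adjusted p = 0.0467). In edgeR without midkine 5 the call of Hsp90b1 was lost (adjusted p = 0.0501) and Lbp was called higher (0.0498), which gave 5 higher and 1 lower.

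The 14 genes of endosomal processing, which cut endosomal TLRs or handle their ligands, had the highest median of the pathway lists. It was 0.72 with all libraries, where limma called 0, and 0.79 without midkine 5, where 9 were called higher and 1 lower (71.4%, against 18.4% of all genes tested). Normalized counts of Ctsl, a cathepsin that cleaves TLRs, were 1085 ± 212 without and 2656 ± 537 with midkine. Lgmn, the protease legumain, had 499 ± 89.8 and 1488 ± 662, and Pld3, an exonuclease that degrades single-stranded nucleic acids, had 557 ± 126 and 1519 ± 401. Slc15a3, a lysosomal peptide and histidine transporter, had 443 ± 15.0 and 729 ± 53.9, and the low Ctsk had 9.42 ± 3.78 and 29.8 ± 0.955. These 5 genes were picked for the smallest unadjusted p of the list. Their groups did not overlap, as for 64.3% of the 14 and 30.8% of all genes tested. Their adjusted p-values in limma ranged from 0.0757 to 0.0881 with all libraries. Without midkine 5 they ranged from 3.44e-05 (Lgmn, midkine mean 1112 there) to 0.00729 (Ctsk). Ctss, also called higher without midkine 5, had 18572 in that library against 21055 to 26267 in the controls. Pld4 was the gene called lower (613 ± 40.9 and 512 ± 69.6), and its groups overlapped.

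The adaptors and kinases behind the receptors had a median log2 fold change close to 0. Of 22 genes, limma called 2 higher and 0 lower without midkine 5 (9.09%, against 18.4% of all genes tested), with a median of −0.02, and 0 with all libraries (median −0.09). Myd88, the adaptor shared by most TLRs, had 566 ± 97.6 and 729 ± 114 normalized counts in the control and midkine groups, which overlapped (adjusted p = 0.320, and 0.194 without midkine 5). Irak2, a kinase that binds MyD88, had 103 ± 17.1 and 144 ± 32.8 (limma, adjusted p = 0.286, and 0.0227 without midkine 5). Its groups overlapped through midkine 5 (117, against 119 in control 2). Traf6, the other gene called higher without midkine 5, had 124 in that library against 129 to 138 in the controls. Irak4 (605 ± 62.5 and 482 ± 125), Ikbke (141 ± 24.6 and 195 ± 68.1) and the TRIF partner Ticam2 (69.8 ± 2.46 and 102 ± 39.5) did not pass in either fit.

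**Figure D3:**
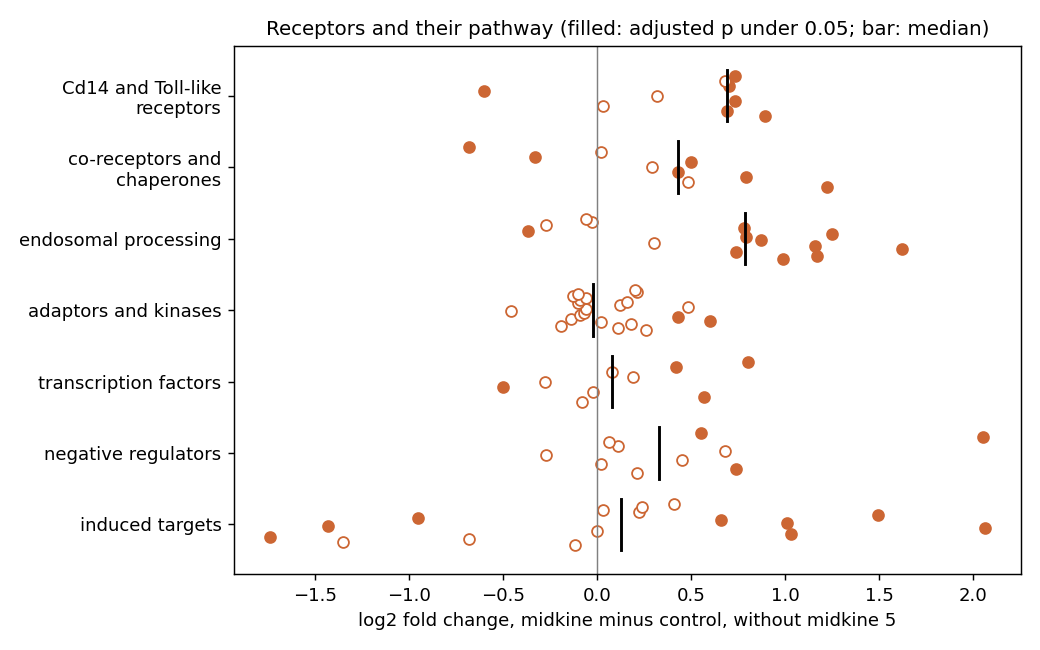
Log2 fold change without midkine 5 (horizontal axis, midkine minus control) of each tested gene in the receptor set and in 6 pathway lists; filled points have an adjusted p under 0.05 in limma and the black bar is the list median. The receptor set (median 0.69) and endosomal processing (0.79) sit to the right of 0, whereas adaptors and kinases (−0.02) centre on it.

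Of 9 transcription factors of the pathway, limma called 3 higher and 1 lower without midkine 5 (44.4%, against 18.4% of all genes tested) and 0 with all libraries. Irf5, which acts behind MyD88, had 372 ± 39.8 normalized counts in control and 446, 679.8 and 2124 in midkine 3, 4 and 5 (adjusted p = 0.228, and 0.0125 without midkine 5). Irf8, a factor of DC development, had 5117 ± 298 and 3848 ± 437 (adjusted p = 0.00208 without midkine 5, log2 fold change −0.50). The NF-kB subunits Nfkb1 (631 ± 5.13 and 478 ± 73.2) and Rela (426 ± 26.4 and 812 ± 567) did not pass in either fit, and Rela stood at 1467 in midkine 5. Jun had 703 ± 134 and 931 ± 80.8 (limma, adjusted p = 0.239, and 0.0363 without midkine 5). Its groups overlapped, with 851 in midkine 3 and 853 in control 2. Fos, also called higher without midkine 5, had 553 in that library against 678 to 1095 in the controls.

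Negative regulators of TLR signalling gave 3 higher and 0 lower of 10 tested (of 11 listed) in limma without midkine 5 (30%, against 18.4% of all genes tested), and 0 calls with all libraries. Dusp1, a phosphatase of MAP kinases, had 121, 152 and 103 normalized counts in the controls and 404, 657 and 575 with midkine (log2 fold change 2.10, adjusted p = 0.0523 with all libraries and 3.68e-06 without midkine 5). Tollip, an inhibitor of IRAK1, had 136 ± 21.3 and 393 ± 287, with 723 in midkine 5 (limma, adjusted p = 0.175). Without that library its midkine mean was 228 (limma, adjusted p = 0.00365). Atf3, the other gene called higher without midkine 5, had 131 in that library against 229.8 to 352 in the controls. Its log2 fold change with all libraries was −0.02. Tnfaip3 (64.0 ± 4.70 and 77.4 ± 24.0), Tnip1 (853 ± 141 and 613 ± 179) and Socs1 (20.3 ± 15.3 and 62.9 ± 59.1) overlapped between the groups. Socs1 stood at 131 in midkine 5, and without that library its log2 fold change was 0.68 in place of 1.41.

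Genes that TLR signals are known to induce went both ways. Of 16 tested (of 17 listed), limma called 5 higher and 3 lower without midkine 5 (50%, against 18.4% of all genes tested) and 0 with all libraries. The cytokine Il1b had 223 ± 9.18 normalized counts without and 456 ± 29.7 with midkine (adjusted p = 0.0639, and 3.44e-05 without midkine 5), and the chemokine Cxcl2 had 56.4 ± 9.83 and 203 ± 86.7 (adjusted p = 0.0788, and 4.9e-06 without midkine 5). Ccl4 had 155 ± 45.4 and 277 ± 83.4 (limma, adjusted p = 0.19, and 0.0392 without midkine 5). Its groups overlapped through midkine 3 (182, against 207 in control 1). Il12b, a subunit of IL-12 made by DCs, had 96.4, 89.0 and 30.6 in the controls and 20.3, 16.9 and 37.2 with midkine (adjusted p = 0.178, and 0.00248 without midkine 5), and the groups overlapped through control 4 and midkine 5. The chemokine Ccl5 had 183 ± 41.6 and 113 ± 36.2 (limma, adjusted p = 0.217, and 0.00165 without midkine 5). Its groups overlapped through midkine 5 (152, against 136 in control 4).

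Markers of cell types moved between the groups as well. In bulk RNA, more cells of a type and more RNA per cell cannot be told apart. Without midkine 5 limma called 9.92% of all genes tested higher and 8.52% lower, the shares to set beside the marker counts that follow. The 11 monocyte and macrophage markers summed to 44819 to 46463 normalized counts without and 59588 to 99374 with midkine, highest in midkine 5, and without midkine 5 limma called 8 of the 11 higher and 1 lower. The 10 neutrophil markers summed to 121869 to 135765 and 174689 to 186041, with 6 of 10 called higher. Both lists, and those of B cells and of mast cells, basophils and eosinophils, had more markers called higher than lower without midkine 5. That is the direction of Cd14, Tlr1, Tlr4, Tlr7 and Tlr13, and the part of these lists in those results was not tested. The 7 cDC1 markers, the cells known for Tlr3, summed to 962 to 1034 in control and 909.7 to 1165 in midkine libraries, with 3 of 7 called lower and 0 higher without midkine 5. Itgae and Snx22 of that list were at 0 in at least 1 library. The 8 plasmacytoid DC markers, of cells known for Tlr7 and Tlr9, summed to 5272 to 5992 and 4728 to 4924, with 1 of 7 tested called lower. B cell markers summed to 1319 to 1853 and 1357 to 2921, with all 7 called higher without midkine 5 (median 0.84, and 0.53 with all libraries), and midkine 5 lay within the control range. The 6 measured markers of mast cells, basophils and eosinophils summed to 953 to 1184 and 1728 to 2660.2, with 6 of 6 called higher without midkine 5 and a median log2 fold change of 1.48, the highest of the marker lists (1.24 with all libraries). The 7 cDC2 markers summed to 3805 to 4665 and 4969 to 12034, so their sum was higher in each midkine library than in any control. By gene, however, limma called 1 higher and 3 lower without midkine 5. Of 7 T and NK cell markers, 3 were in the table and summed to 38.9 to 52.3 and 36.3 to 70.6. The part of these lists in the receptor results was likewise not tested.

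**Figure D4:**
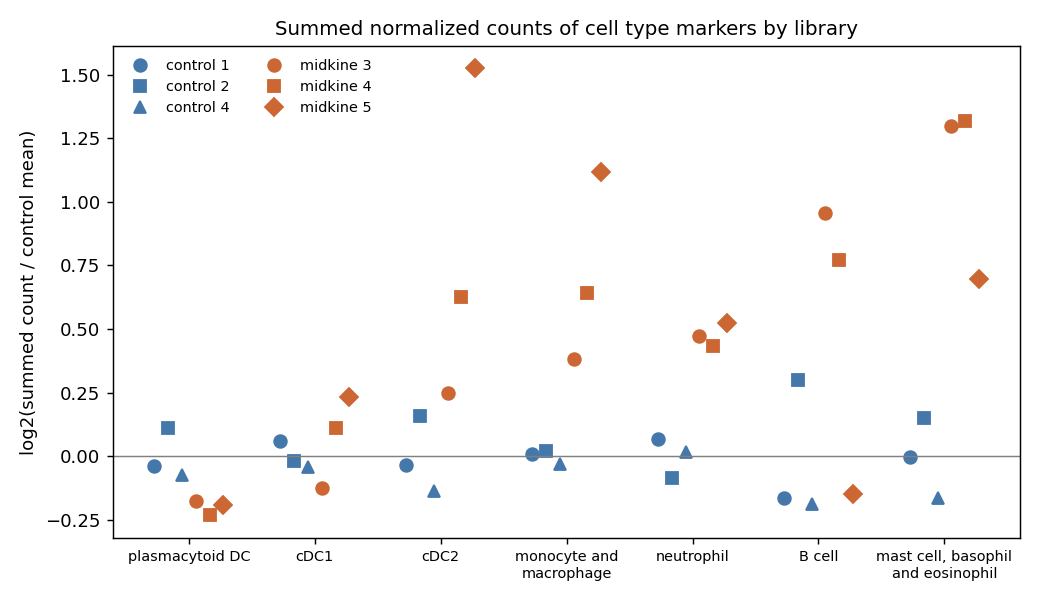
Summed normalized counts of cell type markers in each library, as log2 of the ratio to the control mean (vertical axis), for 7 marker lists; blue symbols are control and orange symbols midkine libraries. Monocyte and macrophage markers lie above the controls in each midkine library and highest in midkine 5, and plasmacytoid DC markers lie below the controls in each.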

How the data were processed

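RNA of 3 control and 3 midkine libraries was sequenced from the 3′ end with the QuantSeq FWD kit, per the labels' protocols. The authors deposited a signal of at least 0 for each gene symbol, their normalized count. Per the submitters' processing notes the build was GRCm38 (mm10) and the tools included HTSeq, DESeq2, SAMtools 0.1.19, TopHat2 2.0.10, Bowtie 1.0.0 and FastQC 0.11.0; no source used here gives the annotation release, the strand setting or the gene filter. Values within a library were multiples of a single step, as of counts divided by a size factor, and dividing by it gave whole reads for 100% of values (tolerance 0.01 reads). The table held 0 other columns of sample values.

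The main test was limma 3.58.1 (R 4.3.3, eBayes with trend) on log2(normalized count + 1), two-sided, for genes with a mean of at least 5 over the 6 libraries, with Benjamini-Hochberg adjustment over all 13543 genes tested. As alternatives, the recovered reads went through edgeR 4.0.16 (TMM, quasi-likelihood test) and DESeq2 1.42.0, whose adjusted p was missing for 3894 genes. Other settings changed the pseudocount, filter, scaling, moderation, weights and libraries. On simulated counts of 13543 genes, limma with 3 against 3 libraries found 37% of the genes given a log2 change of 1 and 96% of those given 2, and made 10 false calls. With 2 midkine against 3 control libraries it found 21% and 90%, and made 5 false calls. No simulated library was made to stand apart as midkine 5 did, so these rates need not hold for the real fits.

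The members and gene lists were chosen with earlier results of these data known, and the motifs after the promoters were seen. All members were named, up to 5 genes per pathway list by smallest unadjusted p (all 3 other TLR genes), and 3 nearest genes each for Cd14, Tlr3 and Tlr9. Cnpy3, Cd36, Cd180, Ctss, Pld4, Traf6, Fos and Atf3 were named in addition. Distances without midkine 5 were added after the data were seen. Gene positions are from GENCODE M21 and promoters from RefSeq (250 bases before to 50 after a start). Figures were drawn with matplotlib 3.10.9.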

Additional observations from a re-analysis of the deposited data

How the results depend on the processing

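With all 6 libraries limma called 0 genes, 0 members and 0 pathway genes. Over all genes the count was 10 with a pseudocount of 5, 9 without a filter, 16 with quantile normalization, 12 with upper quartile scaling, 10 with edgeR, 684 with DESeq2 and 5076 with array weights, which downweight libraries by their spread. Members called numbered 3 with DESeq2 and 8 with array weights, and pathway genes 1 with each of the pseudocount of 5, no filter, quantile normalization, upper quartile scaling and edgeR, 14 with DESeq2 and 48 with array weights. Leaving out 1 library at a time, limma called 0 to 2497 genes, 0 to 6 members and 0 to 34 pathway genes, and the calls came only without midkine 5; edgeR without midkine 5 called 2508 genes, 6 members and 34 pathway genes. The sign of Tlr2, which was never called, became positive at 0.09 without control 1, 0.04 without control 4 and 0.03 without midkine 5 (0.02 with edgeR there). Over the fits without 1 library it ranged from −0.19 to 0.09. That of Tlr8 became positive at 0.09 with edgeR, 0.11 with DESeq2, 0.76 with array weights (adjusted p = 0.0294) and 0.68 without midkine 5 (0.65 with edgeR there), and ranged from −1.20 to 0.68 over the fits without 1 library. The cause was not tested. The other 7 tested members kept their direction in all 17 alternatives. Leaving out 1 library, the log2 fold change of Cd14 ranged from 0.87 to 1.40, of Tlr13 from 0.73 to 0.94 and of Tlr3 from −1.06 to −0.60. No paired analysis was possible because the groups share only replicate number 4. Depth limits Tlr9, with at most 4 reads per library, and Tlr8 in midkine 5.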
